A study of Homo sapiens with 12 samples.

Results

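In HCC70 cells, an established triple-negative breast cancer line, 51734 regions outside promoters carried the active histone mark H3K27ac while no call of SREBP2 or of RORγ touched them. They made up 54.4% of the 95099 acetylated regions found with vehicle on chromosomes 1 to 22 and X, and 75.5% of those outside promoters. A region entered when its H3K27ac was called with vehicle, when it shared no base with a vehicle SREBP2 or RORγ region, and when it lay outside the stretch from 1000 bp upstream to 100 bp downstream of every annotated transcript start. Membership was therefore chosen by the measured vehicle calls, and the strength of H3K27ac in vehicle and the absence of the factors are given as description only.

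Chromatin immunoprecipitation was carried out on HCC70 cells after 24 h of exposure to vehicle or to the RORγ antagonist XY018. The labels put the compound at 5 µM, and a lower dose stands in the published methods. Antibodies against H3K27ac, SREBP2 and RORγ each gave 1 vehicle and 1 XY018 library, so no difference between treatments has a replicate check and no p-value was computed. A single cell line limits the model, and less acetylation in every cell cannot be told apart from acetylation in fewer cells. The fragment pileup expected at an average position of the genome was 1.17 in the vehicle and 1.07 in the XY018 H3K27ac library, and the XY018 list was the longer one, with 105371 regions.

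Acetylation of lysine 27 on histone H3 marks active promoters and active enhancers, the distal elements that raise transcription of genes at a distance. Enhancers are opened by transcription factors that differ between cell types, and in epithelial cells AP-1, TEAD, GRHL and RUNX proteins are among those known for this. SREBP2 drives cholesterol and mevalonate genes from promoters that hold sterol regulatory elements, and RORγ is a nuclear receptor that binds as a monomer to the element AGGTCA preceded by an AT-rich stretch. The regions described here are the acetylated distal chromatin of these cells at which neither of those proteins was called.

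Sequences of 4 regions are shown because the motif results below turn on what lies at the acetylated centre. Each is 300 bases of the hg19 plus strand around the H3K27ac summit, and none overlaps an annotated exon, regions whose window did so being passed over. A window can reach past the ends of its region. In the first 3, capitals mark the AP-1 motif TGANTCA, the element bound by FOS and JUN dimers. The first is a strong member with this motif, nearest to the start of GNE (chr9:36274358-36274657, in an intron, fold 22.5, with 67 summit fragments in vehicle and 82 under XY018). The others are the strongest members with the motif within 50 kb of EGFR (chr7:55063514-55063813, intergenic, fold 8.68) and CDH1 (chr16:68778272-68778571, in an intron, fold 10.7). The last is no member but the strongest exon-free distal region with calls of both factors and the SP/KLF motif GGGCGGG, shown in capitals (chrX:3733796-3734095, intergenic, nearest to PRKX).
GNE member: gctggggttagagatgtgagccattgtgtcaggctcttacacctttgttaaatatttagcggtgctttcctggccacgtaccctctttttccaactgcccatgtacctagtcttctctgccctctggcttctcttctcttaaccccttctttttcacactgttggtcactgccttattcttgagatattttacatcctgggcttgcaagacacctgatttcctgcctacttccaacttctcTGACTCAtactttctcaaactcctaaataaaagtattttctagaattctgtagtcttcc
EGFR member: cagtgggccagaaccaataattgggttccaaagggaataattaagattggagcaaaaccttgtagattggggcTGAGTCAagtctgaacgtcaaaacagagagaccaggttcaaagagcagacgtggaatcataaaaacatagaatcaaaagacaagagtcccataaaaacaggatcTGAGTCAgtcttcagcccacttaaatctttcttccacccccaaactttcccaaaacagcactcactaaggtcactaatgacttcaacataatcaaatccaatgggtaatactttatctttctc
CDH1 member: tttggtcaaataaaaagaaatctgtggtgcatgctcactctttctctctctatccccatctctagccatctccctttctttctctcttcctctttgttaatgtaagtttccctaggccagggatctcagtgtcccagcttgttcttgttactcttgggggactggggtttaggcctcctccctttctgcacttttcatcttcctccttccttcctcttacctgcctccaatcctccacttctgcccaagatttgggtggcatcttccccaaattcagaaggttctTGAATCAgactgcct
PRKX region with both factors: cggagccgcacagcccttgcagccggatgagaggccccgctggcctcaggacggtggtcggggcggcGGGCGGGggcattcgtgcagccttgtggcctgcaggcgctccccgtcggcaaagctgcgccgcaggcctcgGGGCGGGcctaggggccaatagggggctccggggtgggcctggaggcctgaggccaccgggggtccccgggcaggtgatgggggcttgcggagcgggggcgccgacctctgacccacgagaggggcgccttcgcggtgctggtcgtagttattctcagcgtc

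The 4 sequences were chosen for the motifs they hold, so they illustrate the counts below and do not support them. The GNE, EGFR and CDH1 windows held 2, 2 and 0 CpG dinucleotides, and the region with both factors held 30. In the EGFR window the motif occurred at 2 places, the nearer starting 27 bp from the summit, whereas in the CDH1 window its start lay 135 bp away.

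The regions without factors were weaker than acetylated regions with both factors and stronger than distal regions with RORγ alone. Fold is the fragment pileup at the summit divided by the local background, each raised by 1. Its median was 5.41 (quartiles 4.45 and 6.79), against 7.65 at the 9647 distal regions with both factors and 5.99 at the 9633 promoters with neither factor. It was 5.53 at the 4404 distal regions with SREBP2 alone and 5.07 at the 2726 with RORγ alone. The median summit held 13 fragments in members, 19 in distal regions with both factors, 15 in factor-free promoters and 12 in distal regions with RORγ alone. Median width was 443 bp in members and between 460.5 and 511 bp in those 4 groups. The strongest member reached 116 fragments, while the strongest distal region with both factors reached 267. These values chose the members in part and are not tested.

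Among the members themselves, the highest folds lay near genes of varied function. The member 8.64 kb upstream of DENND1B, which encodes an exchange factor for Rab GTPases, had a fold of 33.6 (chr1:197753113-197753771), with 86 summit fragments in vehicle (exact Poisson 95% interval 68.8 to 106) and 72 with XY018 (56.3 to 90.7). A region at chr6:44006598-44011028, 84.1 kb from the nearest protein-coding start, that of TMEM63B, held 73 fragments with vehicle and 75 with XY018. In TMEM63A, which encodes a membrane channel protein, an intronic member at chr1:226063296-226064840 held 84 and 108 fragments. Upstream of ITGAM, an integrin subunit of myeloid cells, the region chr16:31253939-31255040 held 82 and 60 fragments, and the intronic members nearest to MFSD1 (chr3:158489962-158492058) and LRRC4 (chr7:127661762-127662847) held 76 fragments each in vehicle and 67 and 63 with XY018. All 6 were called under both treatments, and in each of them the intervals of the paired counts overlapped, also at TMEM63A (67.0 to 104 and 88.6 to 130).

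The widest members were 3.87 to 4.48 kb long. The widest lay 9.29 kb upstream of HSPB1, a small heat shock protein gene (chr7:75921499-75925978, 4480 bp, 42 fragments with vehicle and 36 with XY018). The second was the TMEM63B region of 4431 bp. The third, 4087 bp wide, lay 4.16 kb upstream of TNS3, a focal adhesion protein gene, where the pair of counts was 27 and 24. The fourth, 3866 bp wide, lay near AGFG2, with 58 and 46.

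Members lay mostly in introns. By the position of the summit, 70.8% (exact binomial 95% interval 70.4 to 71.2%, which like every interval here covers counting error only) were intronic, 24.6% (24.2 to 24.99%) intergenic and 4.58% (4.40 to 4.76%) exonic. Of the distal regions with both factors, 34.3% (33.4 to 35.3%) had their summit in an exon and 45.6% (44.6 to 46.6%) in an intron. Distal regions with RORγ alone were close to the members, with 72.7% intronic and 3.96% exonic. The intronic share was 64.4% at distal regions with SREBP2 alone and 61.4% over all vehicle H3K27ac regions. The median distance from a member to the nearest start of a protein-coding transcript was 10.8 kb (quartiles 4.03 and 29.0 kb), against 5.91 kb for the distal regions with both factors. Within 2.5 kb of such a start lay 15.2% (14.9 to 15.5%) of members, all of them beyond the promoter stretch used for the rule.

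Factor calls were often near, although none touched a member. The nearest vehicle SREBP2 or RORγ region was 4.40 kb away at the median (quartiles 1636 and 11018 bp), within 1 kb for 15.9% and within 5 kb for 53.6% of members. At the edge of the rule, 9 members adjoined a factor region with a gap of 0 bp, among them regions nearest to MACF1 (chr1:39839275-39839556, fold 5.06) and GTF2B (chr1:89337840-89338105, fold 4.33), and 50 lay within 10 bp. Just outside it, 47 distal regions shared at most 10 bp with a factor region. Next to the promoter stretch, 85 members lay within 10 bp of it and 99 factor-free regions shared at most 10 bp with it. The members closest to it were nearest to ADAR (chr1:154579495-154580182) and to TPD52 (chr8:81072123-81072449). The lowest fold among members was 1.91, at chr5:175854224-175854863 near CLTB and chr22:31715959-31716326 near PATZ1, which was also the lowest of the vehicle list.

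With XY018, 31743 of the 51734 members still overlapped a called H3K27ac region. This share of 61.4% (60.9 to 61.8%) stood below the 69.3% of all vehicle H3K27ac regions, below the 74.7% (73.8 to 75.5%) of distal regions with both factors and below the 74.3% (73.4 to 75.2%) of factor-free promoters. The share followed strength. When all acetylated regions were divided into 10 equal classes of vehicle fold, 42.1% of members in the weakest class, 61.0% in the fifth, 92.5% in the eighth and 205 of 205 in the strongest class were kept.

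Within classes of equal strength the order against the distal regions with both factors turned. Averaged over the classes, the kept share of members was higher by 3.59 percentage points (95% interval 2.35 to 4.82). In the sixth class 71.0% (69.8 to 72.2%) of members and 64.0% (60.9 to 67.1%) of regions with both factors were kept, and in the eighth the shares were 92.5% (91.7 to 93.2%) and 86.1% (84.3 to 87.7%). In the weakest class the intervals overlapped, at 42.1% (41.0 to 43.3%) and 42.1% (37.4 to 46.8%). When factor calls were counted only at q values of at most 1e-05, the difference was 0.541 points with an interval from -1.01 to 2.097. Against factor-free promoters, members were kept less often at equal strength, by -7.85 points (-8.84 to -6.86). Distal regions with SREBP2 alone differed from members by 1.41 points, with an interval that held 0 (-0.0598 to 2.87), and those with RORγ alone by 1.97 points (0.282 to 3.67), members being higher in both.

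**Figure D1:**
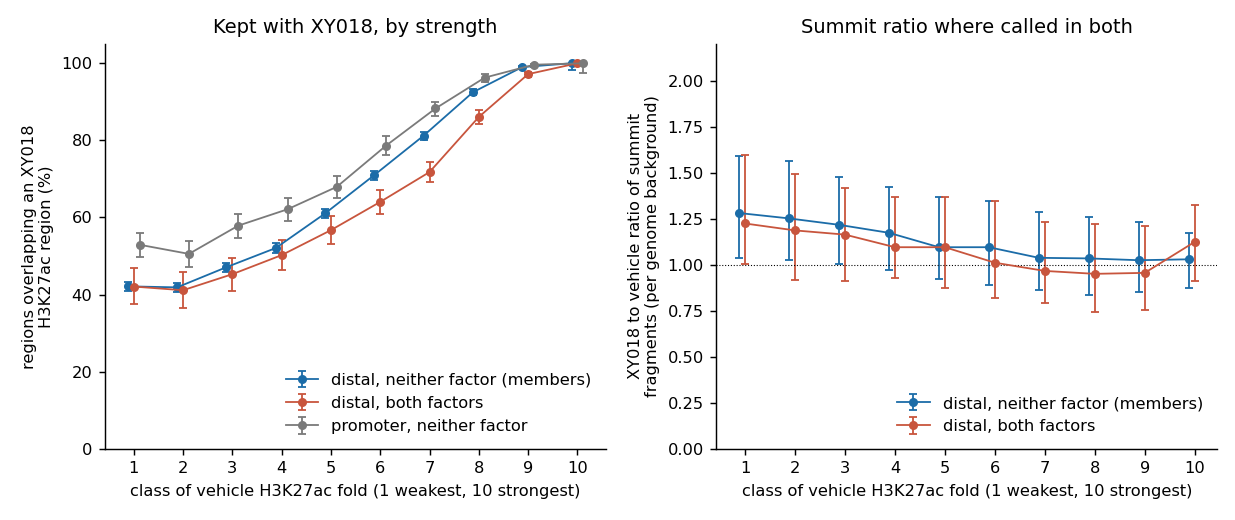
Left, the share of vehicle H3K27ac regions overlapping an XY018 H3K27ac region (%) in 10 classes of vehicle fold, with exact binomial 95% intervals as bars. Right, the median XY018 to vehicle ratio of summit fragments (each per the genome-wide background of its library) of regions called in both, with quartiles as bars. Kept shares of members rose from 42.1% to 100% across the classes and lay between those of distal regions with both factors and those of factor-free promoters in the fifth to ninth classes, and the median ratio of members fell from 1.28 to 1.03.

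Neighbouring acetylation and background went with the kept share. At equal fold, members with another vehicle H3K27ac region within about 13 kb, the distance customary for joining enhancers, were kept more often than isolated members. The difference was 15.9 points (14.4 to 17.3), the plain shares being 63.1% and 39.6%. Local background and fragment number were not held equal there. A member with near neighbours can also overlap an XY018 region whose summit lies outside it, and the part of this was not tested. Members in genes were kept less often than intergenic members by -1.88 points (-2.79 to -0.966). Members whose local background exceeded the genome-wide level were kept more often at equal fold by 16.7 points (15.8 to 17.5). By the definition of fold, a higher local background at equal fold means more summit fragments. This last comparison therefore cannot separate the background from the number of fragments. The part of the local background in the kept share was not tested.

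The 31743 members called under both treatments had, at the median, the same number of summit fragments in each library. Scaled by the genome-wide background of each library, the median XY018 to vehicle ratio was 1.10 (quartiles 0.913 and 1.39), the value that equal fragment numbers give, against 1.017 at distal regions with both factors, 1.19 at factor-free promoters and 1.15 over all regions called in both. Relative to that last value, the median ratio of members was 0.951, so the direction depends on the scaling. A ratio of at least 1.5 was reached by 17.9% (17.5 to 18.3%) of these members and by 19.1% of all regions called in both. A ratio of at most 0.667 was reached by 3.94% (3.73 to 4.16%) of members, by 5.06% of all regions and by 11.5% (10.7 to 12.2%) of distal regions with both factors. Regions not called with XY018 have no ratio, and weak regions were kept less often. These shares therefore leave out regions no longer called, more of them among members, and were not compared at equal fold. In the eighth class of fold the median ratio was 1.03 for members and 0.951 for regions with both factors.

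Some of the high ratios compared different places. For 86.8% of the members called in both, the summit of the overlapping XY018 region lay inside the member, and 14.1% (13.7 to 14.5%) of those reached 1.5. Among the 488 members whose libraries together held at least 100 fragments, the summit lay inside for 249. The 4 highest ratios of the 488, from 28.0 to 36.0, were all of the other kind: short members just downstream or upstream of SF1, ERBB2, NADK and PHF13, with 8, 9, 9 and 10 fragments, that touched XY018 regions of 1543 to 3323 bp whose summits lay 877 to 2298 bp away.

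Among the 249 of these 488 members with the XY018 summit inside, the 4 highest ratios ran from 1.92 to 2.34. These 4 members were picked after their values were seen. An intronic member nearest to SPIRE1, an actin nucleator gene, had 44 fragments in the vehicle library (32.0 to 59.1) and 94 in the XY018 library (76.0 to 115), for a ratio of 2.34 (chr18:12604930-12606936). At 158 kb from SHB, which encodes an adaptor of tyrosine kinase signalling, the counts were 44 and 84, with a ratio of 2.09 (chr9:38226373-38227083). Downstream of the start of S100A9, a calcium-binding protein of inflamed epithelia and myeloid cells, they were 50 and 91, with a ratio of 1.99 (chr1:153336914-153337668). The fourth, 12.1 kb upstream of FAM83A, held 37 and 65 fragments (ratio 1.92). The intervals of the paired counts did not overlap at SPIRE1, SHB and S100A9 and overlapped at FAM83A.

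Among the 488 members whose libraries together held at least 100 fragments, the lowest ratios were milder. An intergenic member 295 kb from KLF5, which encodes an epithelial zinc finger factor, had 65 fragments in vehicle (50.2 to 82.8) and 40 under XY018 (28.6 to 54.5), for a ratio of 0.674 (chr13:73943159-73945040). Next to COTL1, an actin-binding protein gene, 61 and 39 fragments gave 0.7004 (chr16:84652958-84654067). The members nearest to RAI14 (chr5:34502709-34503575) and MKLN1 (chr7:130848668-130849429) had ratios of 0.720 and 0.761. The intervals of the paired counts overlapped at all 4.

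Members without any overlapping XY018 region were mostly weak, but some were not. The strongest was an intronic region 595 bp inside SYNJ2, an inositol phosphatase gene, with a fold of 17.0 and 36 fragments (25.2 to 49.8) in vehicle (chr6:158438889-158439421), and the nearest XY018 region began 1050 bp away. An exonic member of 35 fragments in MAPK8IP3, which encodes a scaffold of JNK signalling, had an XY018 region only 81 bp away (chr16:1794987-1795318). The others lay near TRIM55 (43 fragments, nearest XY018 region at 473 bp) and PSME4 (27 fragments, 5193 bp). So 3 of the 4 had an XY018 region at a distance of at most 1050 bp.

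Few members gained a factor call with XY018, in libraries that the rule did not use. SREBP2 was called at 773 members, 1.49% (1.39 to 1.60%), against 26.4% of all vehicle H3K27ac regions and 90.2% (89.6 to 90.8%) of distal regions with both factors. RORγ was called at 1358 members, 2.62% (2.49 to 2.77%), against 26.7% of all vehicle H3K27ac regions and 91.0% (90.4 to 91.5%). Both factors were called at 63 members. Regions with both factors were chosen for their vehicle calls and are among all vehicle H3K27ac regions. Those contrasts therefore set retained calls against new ones and follow in part from the selection. The XY018 factor lists were also shorter than the vehicle ones, at 69700 against 117441 regions for SREBP2 and 129954 against 167264 for RORγ. Factor-free promoters, which like members had no vehicle call of either factor, had similar shares, 1.44% (1.21 to 1.70%) for SREBP2 and 2.29% (2.005 to 2.61%) for RORγ. When factor calls were counted only at q values of at most 1e-05 under both treatments, the shares were 0.0931% and 0.121% of the then 57975 members. The strongest members with an SREBP2 call under XY018, picked after their values were seen, lay near ZDHHC7 (chr16:85026492-85028373, fold 22.3) and PKP1, a desmosomal plaque gene (chr1:201277222-201278622, fold 21.4). Those with a RORγ call lay near SDHA (chr5:252000-254197, fold 19.6) and ITPRIPL2 (chr16:19130393-19132191, fold 18.1). The share with a RORγ call was 3.06% in the weakest class of fold and 1.53% in the ninth, while that with SREBP2 was 1.30% and 1.74%.

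Members had a lower GC content than regions with both factors and lay closest to distal regions with RORγ alone. The 501 bases around the summit had a median GC content of 47.3% (quartiles 43.9 and 51.1%) in members, 65.3% in distal regions with both factors, 54.9% in those with SREBP2 alone and 49.1% in those with RORγ alone. Factor-free promoters had a median of 50.5%. Windows 5 kb away had medians of 44.9% for members and 52.7% for regions with both factors. A member window held 6.96 CpG dinucleotides on average, and a window with both factors 27.1.

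AP-1 motifs were more frequent around members than around regions with both factors. Of the member windows, 14.7% (14.4 to 15.02%) held TGANTCA, against 6.74% (6.25 to 7.26%) with both factors, 11.7% of all vehicle H3K27ac windows and 14.1% of windows 5 kb from members. The difference to regions with both factors was 7.98 points within classes of fold (7.29 to 8.67) and 2.51 points within classes of GC content, with an interval that held 0 (-0.392 to 5.42). Along the profile, matches were rarest next to the summit. Within 100 bp of it, 4.54% (4.36 to 4.72%) of members held one, and the number of matches per 1000 members in a 100 bp bin was 23.04 just beside the summit, 46.4 at 400 to 500 bp and 32.0 at 1900 to 2000 bp. Between 200 and 700 bp to either side, 34.6% (34.2 to 34.98%) of members held a match, against 28.0% (27.6 to 28.4%) in stretches of the same length at 1500 to 2000 bp. In the 5470 members with the highest fold these shares were 42.6% (41.3 to 43.9%) and 29.0% (27.8 to 30.3%). At distal regions with both factors the order was the other way, 16.5% (15.7 to 17.2%) near and 19.8% (19.0 to 20.6%) far. Factor-free promoters had the order of the members, with 29.8% (28.9 to 30.7%) near and 25.8% (24.9 to 26.7%) far.

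**Figure D2:**
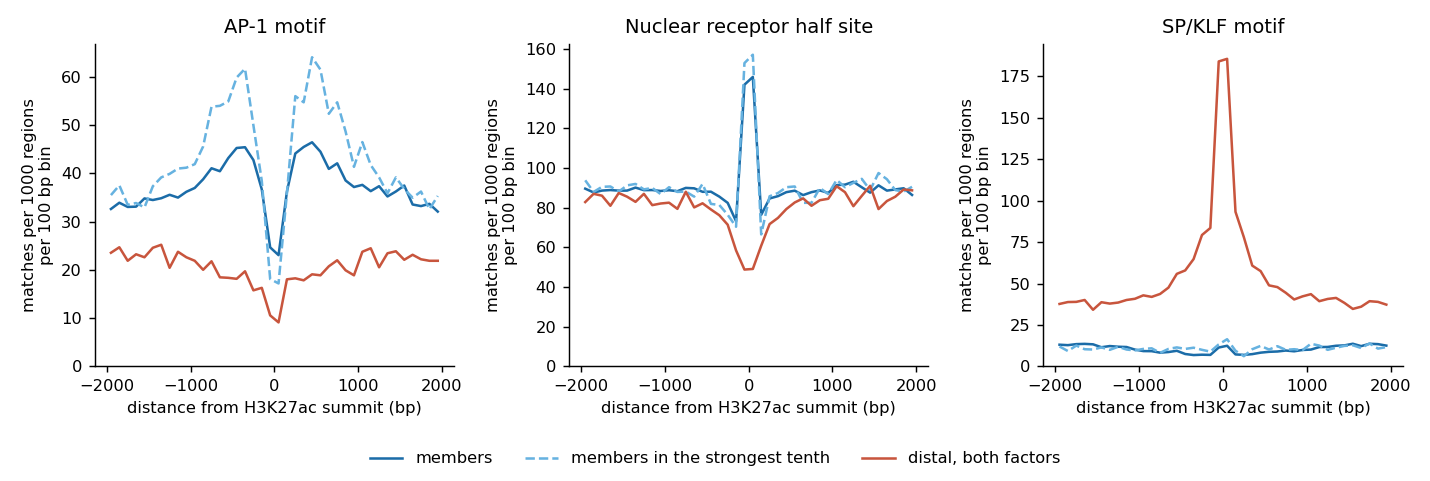
Matches per 1000 regions in 100 bp bins, plotted against distance from the H3K27ac summit (bp), for AP-1 (left), the nuclear receptor element AGGTCA (middle) and SP/KLF (right) in all members, in the 5470 members with the highest fold and in distal regions with both factors. AP-1 matches of members dipped to 23.04 at the summit and peaked at 46.4 between 400 and 500 bp, AGGTCA peaked at 146 within 100 bp of the summit of members, and SP/KLF peaked at 186 in regions with both factors, where members had 12.51.

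Over all member windows, motifs of other epithelial factors were at least as frequent 5 kb away as around the member summits. TEAD (CATTCC) was in 23.5% (23.1 to 23.8%) of member windows and 24.2% of windows 5 kb away, GRHL (AACCNGTT) in 2.80% and 3.37%, and RUNX (TGTGGTT) in 7.53% and 8.17%. In regions with both factors they were in 16.2%, 1.28% and 4.24%. Further motifs were more frequent in members than in regions with both factors, and each was rarer in members than 5 kb away from them. The forkhead motif TGTTTAC was in 4.62% of members and 2.32% of regions with both factors. For the GATA factors, whose motif was searched as AGATAA, the shares were 20.5% and 5.38%. The CEBP motif TTGCNNAA was in 18.0% and 7.47%, and the STAT motif TTCNNNGAA in 11.2% and 6.05%. The SOX motif ACAATGG was in 5.19% and 3.10%. The NF-Y motif CCAAT was in 42.5% and 25.8%. In windows 5 kb from members the shares were 6.37% for the forkhead motif, 26.04% for GATA, 21.5% for CEBP, 13.98% for STAT, 6.34% for SOX and 48.2% for NF-Y. GC-rich motifs were rarer in members. SP/KLF (GGGCGGG) was in 4.03% (3.86 to 4.20%) of members and 37.8% (36.8 to 38.7%) of regions with both factors, AP-2 (GCCNNNGGC) in 10.4% and 51.1%, ETS (CCGGAAG) in 1.80% and 7.14% and the E-box (CACGTG) in 5.37% and 13.6%. NF-kB (GGGANTTCC, 1.41% and 1.87%) and CRE (TGACGTCA, 0.238% and 0.404%) were rare in both. Over all vehicle H3K27ac windows the shares of TEAD, GATA, SP/KLF and AP-2 were 20.8%, 15.4%, 18.5% and 24.0%.

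The nuclear receptor element and the sterol regulatory element occurred at members more often than at regions with both factors and less often than at distal regions with RORγ alone. AGGTCA was in 43.6% (43.2 to 44.04%) of member windows, 36.1% of windows 5 kb away, 24.3% (23.5 to 25.2%) of regions with both factors and 37.0% of all vehicle H3K27ac windows. The sterol regulatory element TCACNCCAC was in 7.35% (7.13 to 7.58%), 4.91%, 3.21% (2.87 to 3.58%) and 5.93%. Distal regions with RORγ alone held AGGTCA in 55.2% (53.3 to 57.1%) and the sterol element in 10.9% (9.78 to 12.2%), and those with SREBP2 alone held them in 39.9% (38.4 to 41.4%) and 7.97% (7.19 to 8.81%). AGGTCA matches of members were concentrated within 100 bp of the summit, at 142 and 146 per 1000 members in the bins beside it and 89.6 at the far edge of the profile.

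Many of these matches stood in a sequence that recurs through the genome. The 12-letter run most frequent in member windows, cctgtaatccca (or its complement on the other strand), was in 32.8% (32.4 to 33.2%) of them, in 19.8% of windows 5 kb away, in 24.3% (23.4 to 25.2%) of factor-free promoters and in 4.32% (3.93 to 4.75%) of distal regions with both factors. It is a stretch of the Alu family of interspersed repeats. The most frequent run with the receptor element, AGGTCAggagtt, was in 15.4% (15.1 to 15.7%) of member windows and 8.80% of windows 5 kb away. Both runs lay in the 300 bases around the summit of the member with the highest fold, that upstream of DENND1B. Of the member windows with the first run, 61.9% held AGGTCA and 10.2% the sterol element. In those without it the shares were 34.7% and 5.97%, against 29.5% and 3.85% in windows without it 5 kb away. AP-1 was in 13.7% of windows with the run and 15.2% of those without. The part of this repeat in the H3K27ac calls was not tested.

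Acetylated regions lay close together. Another vehicle H3K27ac region lay within about 13 kb of 92.7% (92.5 to 92.9%) of members, against 87.5% (86.8 to 88.2%) of distal regions with both factors and 90.1% of all vehicle H3K27ac regions. The shares were higher at distal regions with SREBP2 alone (94.6%), at those with RORγ alone (94.5%) and at factor-free promoters (93.5%). An acetylated region with a factor lay within that distance of 56.1% (55.7 to 56.6%) of members. Joined over gaps of up to the same distance, the members formed 15606 groups. Of all members 6972 stood alone, and 16973, or 32.8%, were in 1000 groups of at least 10.

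The largest group held 86 members over 235 kb across B4GALT5, a glycosyltransferase gene, and SLC9A8, a sodium-proton exchanger gene (chr20:48228208-48462748), with folds from 3.26 to 16.6, of which 68 were kept with XY018. Only 6 other vehicle H3K27ac regions lay among them, 4 with a factor. The second held 84 members around ERRFI1, which encodes a feedback inhibitor of EGFR (chr1:8065553-8276128), and 77 of them were kept. Groups of 62 members spanned PRKCH, a protein kinase C gene (chr14:61927507-62070446, 44 kept), and the adjoining CDH1 and CDH3, the E-cadherin and P-cadherin genes (chr16:68666985-68834190, 53 kept). In the cadherin group 22 of the 30 other acetylated regions carried a factor, and in the PRKCH group 2 of 10. The fifth, of 60 members, covered FBLIM1, SPEN and UQCRHL (chr1:16080923-16252870, 48 kept). Where the XY018 summit lay inside, the median ratios of the 5 groups were between 1.05 (CDH1 and CDH3) and 1.21 (B4GALT5 and SLC9A8).

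Genes of epithelial and basal cells had many members around them. At least 1 member lay within 50 kb of a transcript start for 64.2% of 20090 protein-coding genes, with a median of 2 members per gene (quartiles 0 and 7). Of the epithelial genes it was 15 of 16, with a median of 13.5, and of the basal genes 22 of 23, with a median of 10. Distal regions with both factors lay within the same distance of 8 and 10 of these genes, with medians of 0.5 and 0, shares near the 39.2% of all protein-coding genes, whose median was 0. Counts rise with the number and spread of a gene's transcript starts, and members near neighbouring genes are counted at each, such as 15 shared by CDH1 and CDH3 and 13 shared by KRT8 and KRT18.

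In the basal list, EGFR, the epidermal growth factor receptor gene, had 54 members, of which 40 were kept. The strongest, in an intron (chr7:55153373-55154003), held 35 fragments with vehicle and 37 with XY018. CDH3 had 35 members, 29 of them kept, the strongest of 44 and 42 fragments 4.03 kb upstream of a start. TP63, the regulator of basal identity, had 18 members and KRT5 6, while NGFR had none. Of the 279 distinct members near basal genes 65.9% were kept, against 61.2% of the members near any protein-coding gene. The share was 72.6% near epithelial, 73.0% near AP-1 and 58.9% near luminal genes. Near mesenchymal genes 11 of 21 members were kept, or 52.4%, and near neural and muscle genes 3 of 4. For EGFR ligands and feedback the share was 74.3% and for cholesterol synthesis 64.2%. Blood cell genes had 61.9%, TEAD and YAP genes 61.5% and liver genes 58.3%. None of these shares was adjusted for fold.

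In the epithelial list, CDH1 had 48 members, GRHL2, a regulator of epithelial junction genes, 40 and ELF3, an epithelial ETS factor, 35. The strongest member near CDH1 had 28 fragments in vehicle (18.6 to 40.5) and 15 under XY018 (8.40 to 24.7), for a ratio of 0.587 (chr16:68811338-68812391). That near GRHL2 held 28 and 27, and that near ELF3 51 and 69, 31.7 kb downstream of the start (chr1:202012527-202015454). MARVELD2 alone had no member. Luminal genes were closer to the background, with members at 13 of 18 and a median of 3.5. KRT8 led with 25 (strongest 29 and 18 fragments), followed by AGR2 and SPDEF with 17 each (37 and 45, and 35 and 41). ESR1, the estrogen receptor gene, had 4 members, and PGR, TFF1, ERBB4 and NAT1 had none.

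All 12 AP-1 genes had at least 1 member, with a median of 6.5, and 9 of them also had a distal region with both factors. Over all protein-coding genes 64.2% had a member, with a median of 2, and 39.2% had a distal region with both factors. FOS had 25 members (21 kept, strongest 37 and 35 fragments), MAFF 19 and FOSB 12, whose strongest member held 52 and 60 fragments in an exon (chr19:45988757-45989403). Of the TEAD and YAP genes 9 of 13, or 69.2%, had members, a share near that of all genes, with a median of 6. WWTR1, which encodes the coactivator TAZ, had 48 (31 kept, strongest 38 and 24 fragments), AMOTL2 26 (55 and 64) and YAP1 19 (20 and 25), while TEAD2, CCN2, ANKRD1 and AXL had none. Of the genes for EGFR ligands and feedback 11 of 14, or 78.6%, had members, with a median of 3.5, the same as that of luminal genes. ERRFI1 had 30 (26 kept, strongest 36 and 45 fragments), IER3 30 (36 and 38) and TGFA, a ligand of the receptor, 10 (24 and 25).

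**Figure D3:**
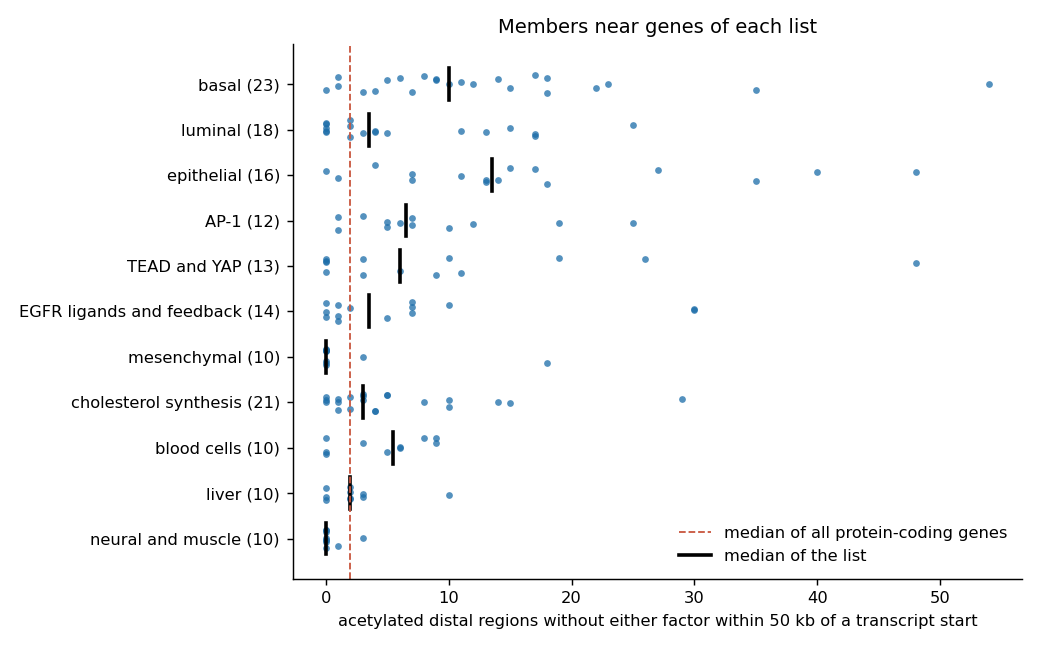
Number of acetylated distal regions without either factor within 50 kb of a transcript start (horizontal axis) for each gene of 11 lists, with the number of genes in parentheses, the median of each list as a black bar and the median of all protein-coding genes as a dashed line. Epithelial and basal genes had medians of 13.5 and 10 against 2 over all genes. Blood cell genes had a median of 5.5, and mesenchymal and neural and muscle genes had medians of 0.

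Genes of cholesterol synthesis, the pathway driven by SREBP2, had members at 18 of 21, with a median of 3. Over all protein-coding genes the share was 64.2% and the median 2. Of the 120 distinct members near the cholesterol genes 77, or 64.2%, were kept with XY018, against 61.2% near any protein-coding gene. GGPS1 and FDPS had 15 and 14, and their strongest members, of 24 and 19 fragments, were not called with XY018. HMGCS1 and SQLE had 1 each, while MVD had 3 members beside 14 distal regions with both factors.

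Lists of other cell types served as contrast. Mesenchymal genes had members at 2 of 10 only, SNAI1 with 18 and FN1 with 3. VIM, ZEB1, ZEB2, SNAI2, TWIST1, TWIST2, CDH2 and PRRX1 were at 0. Neural and muscle genes also had members at 2 of 10, DES with 3 and GFAP with 1. Liver genes had members at 7 of 10 with a median of 2 (HNF4A 10, SERPINA1 3 and CYP3A4 3). Blood cell genes had them at 7 of 10 with a median of 5.5 (CD14 9 and ITGAM 8). Both shares were near the 64.2% of all genes, but the blood cell median was above the 2 of all genes and the 3.5 of luminal genes. The ITGAM member is the fourth strongest of all, described above, and MS4A1, GATA1 and HBB had none.

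**Figure D4:**
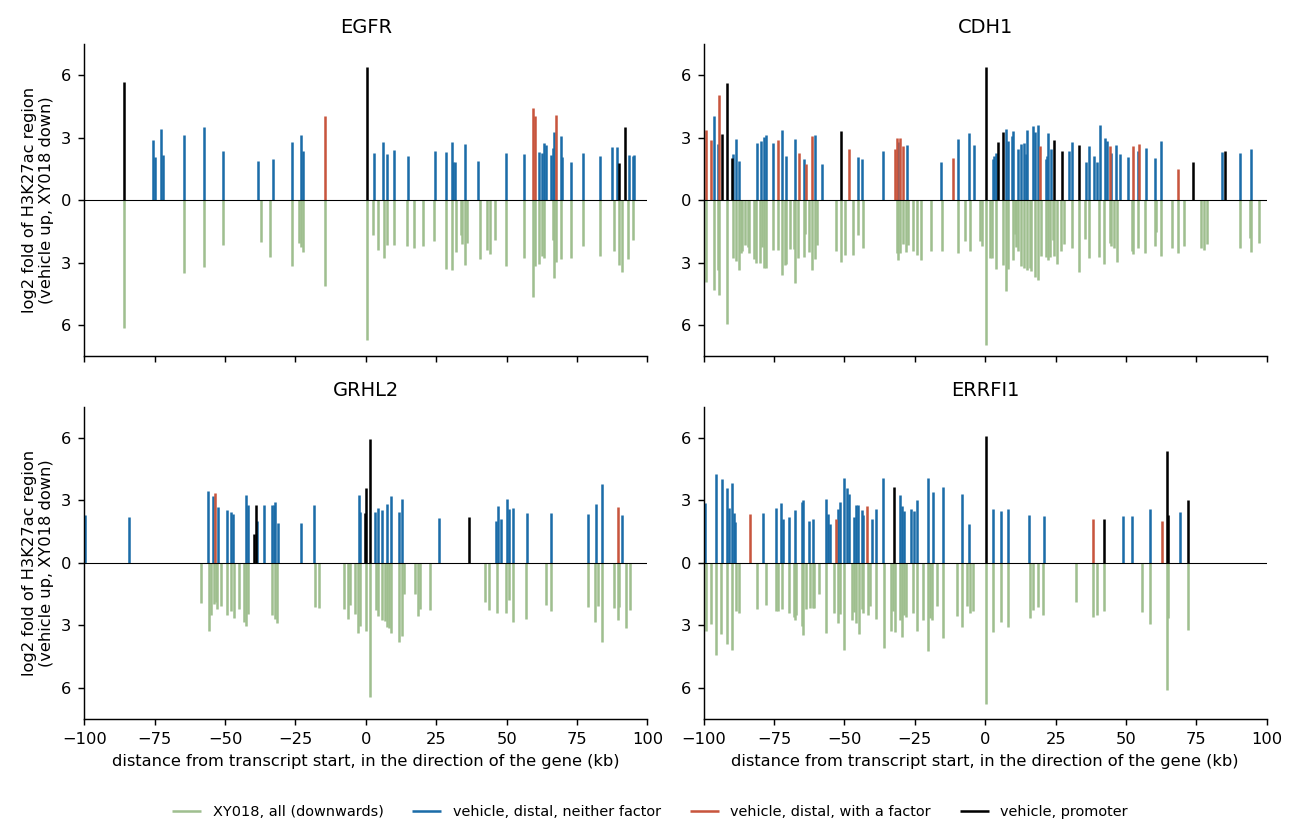
H3K27ac regions within 100 kb of the outermost transcript start of EGFR, CDH1, GRHL2 and ERRFI1, plotted by summit distance (kb, in the direction of the gene) and log2 fold, with vehicle regions upwards in 3 kinds and all XY018 regions downwards. Members numbered 43, 64, 40 and 54 in these stretches, with highest folds of 11.3, 16.3, 13.9 and 19.1, against highest promoter folds of 83.2, 84.2, 61.2 and 67.9.

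Around these 4 genes members outnumbered other acetylated distal regions, as over all chromosomes together, where they made up 75.5% of such regions. Within 100 kb of the outermost start, EGFR had 43 members and 4 distal regions with a factor, GRHL2 had 40 and 2, ERRFI1 54 and 5, and CDH1 64 and 18. Their median folds were 4.91, 6.10, 5.99 and 6.31. The distal regions with a factor had higher median folds near EGFR and GRHL2, at 16.8 and 8.40, and lower ones near ERRFI1 and CDH1, at 4.31 and 6.05.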

How the data were processed

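HCC70 ChIP-seq of H3K27ac, SREBP2 and RORγ, with 1 library per antibody and treatment, was analysed, without the 6 input libraries. The published methods name BWA for alignment to hg19, unique and deduplicated tags, and MACS 2.1.0 for peak calling. The submitters' processing notes name Bowtie2, MACS2 and bedtools. The authors deposited 1 peak list per library, with a fold (a ratio of pileup to local background), a −log10 p, a −log10 q and a display score that was not used. Peak numbers in the H3K27ac lists reached 245055 and 241397, so these lists held part of longer call sets, by a selection whose rule no source used here gives. The largest q was 0.212 in the vehicle H3K27ac list, 0.417 in the vehicle SREBP2 list and 0.371 in the vehicle RORγ list.

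Overlaps of at least 1 bp were computed with Python 3.11.15, and the member count was checked with bedtools 2.31.1. GENCODE 44 lifted to GRCh37 (the same build as hg19) gave transcript starts, exons and genes. Summit fragments and local background were recovered from fold and −log10 p under the Poisson model of MACS, where 100% of vehicle and 99.9991% of XY018 regions gave whole numbers within 5% of a step, a method tested on simulated data. A summit ratio used the overlapping XY018 region with the most fragments. Shares carry exact (Clopper-Pearson) and fragment numbers exact Poisson 95% intervals, which cover counting error only. Differences of shares were averaged over 10 classes of vehicle fold with a normal 95% interval from binomial variances. The 501 bases around each summit were scanned in both orientations for 18 motifs, spelled out in the text, and matches of different motifs could overlap. Total read depth per library is not in the lists.

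Regions named were the 6 with the highest fold, the 4 widest, the 4 strongest without an XY018 region, the 4 highest and 4 lowest ratios at 100 or more fragments, the 5 largest groups, threshold cases and, per gene list, the 3 genes with the most members and their strongest member. Other genes, and regions said to be so, were named after their values were seen. A region is named by the protein-coding gene with the nearest start. The members and gene lists were chosen with earlier results of these data known. Alternatives are given in the closing section. Some named genes and sequences that these rules give are not reported here.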

Additional observations from a re-analysis of the deposited data

How the results depend on the processing

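Of 80 alternatives, 44 moved a result by less than its counting interval or, for the number of members, by less than 1.5 times. The sign changed in 2: without classes of fold the kept-share difference to distal regions with both factors was -13.3 points, and the median ratio scaled by the median of all regions called in both was 0.951. With H3K27ac lists at q of at most 1e-05, 62.4% of members were kept, the median ratio was 1.13, 2.33% had a RORγ call under XY018, 70.2% were intronic and 90.8% had a neighbour within about 13 kb. With factor lists at that q, the kept-share difference was 0.541 points, SREBP2 and RORγ calls fell on 0.0931% and 0.121%, and AP-1 on 14.4%. Members more than 1 kb from a factor region had 1.24% SREBP2 and 2.18% RORγ calls and 91.9% neighbours. With no transcript start within 5 kb, 29721 members were left, of which 60.3% were kept, 1.35% and 2.35% had SREBP2 and RORγ calls, 15.4% held AP-1, 67.3% were intronic and 90.8% had neighbours. With promoters of protein-coding transcripts alone, 61.8% were kept and 70.2% intronic. The kept share was 59.3% for an overlap of 50%, 58.7% for summits within 500 bp and 58.2% with the XY018 list cut to the vehicle list's length. For a factor overlap of 50%, SREBP2 and RORγ shares were 1.29% and 2.25%. Within 100 bp of the summit AP-1 was in 4.54% and its difference was 2.55 points, and the difference was 2.51 points in classes of GC content. Neighbours within 5 kb were found for 84.7%. On regions obeying the rule under XY018 and called in both, the median ratio was 1.08. Chosen after seeing the data, AP-1 at 200 to 700 bp was in 34.6% with a difference of 19.1 points, and without windows holding the recurrent run it was in 15.2%. The cause of these shifts was not tested. No paired analysis was possible because each group had 1 library, which also left no replicate to leave out.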

Other observations

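The members were unevenly spread over the chromosomes. Chromosome 22 held 39.5 members per Mb, chromosome 19 36.2, chromosome 16 33.0 and chromosome 1 32.3, while chromosome 4 held 5.80 and X 3.30. Chromosome 1 alone held 8053 members, 15.6% of all on 8.21% of the length. Relative to the distal regions with both factors, members were most numerous on chromosome 3, with 10.997 members per such region, and chromosome 18, with 10.4, and least on chromosome 19, with 1.95. The median local background of members was 1.76 on chromosome 1, 1.89 on chromosome 3 and 1.84 on chromosome 16, and 1.17 on chromosomes 2, 4 and 5. The kept share was 64.0%, 61.1% and 65.3% on the first 3 of these and 55.7%, 54.2% and 58.9% on the others. Of the other chromosomes some followed this pairing, such as chromosome 7 with 63.4% at a background of 1.84 and X with 53.2% at 1.17. Some did not. Chromosome 19 had the highest kept share, 67.3%, at a background of 1.29. Chromosome 20 had 60.4% at 1.17 and chromosome 13 had 58.7% at 1.67. Copy number was not measured, and its part in these values was not tested.

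The same rule applied to the XY018 lists gave 65288 regions, 62.0% of the 105371 XY018 H3K27ac regions. Of these, 29962, or 45.9%, overlapped a vehicle member, 4517, or 6.92%, overlapped another vehicle H3K27ac region, and 30809, or 47.2%, overlapped none. In the other direction, 29628 members, or 57.3%, overlapped a region of the XY018 set, and 2115, or 4.09%, were kept but no longer met the rule.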
